A study of Mus musculus with 4 samples.

Results

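Expression of 33 genes of cholesterol synthesis, its control by SREBP, sterol transport, efflux, esterification and oxysterol formation was followed in CD45+ cells of epididymal white adipose tissue (eWAT). The genes were chosen by name, and each was found among the 35869 genes listed. All 33 passed the limit on low values, which asked for 1 TPM or more in 2 or more samples and kept 16849 genes for testing. TPM is a gene's read count per length, scaled to the same total in every sample, so levels can be compared between genes.

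The cells came from wild type male C57BL/6 mice that received a normal diet (ND, 10% of calories from fat) or a high fat diet (HFD, 60% of calories from fat) for 12 weeks, starting at 8 weeks of age. They were taken from the stromal vascular fraction with CD45 microbeads, and RNA-seq was run on 2 samples per diet. The samples are called ND 1, ND 2, HFD 1 and HFD 2 here, and values are given in that order. How many mice a sample holds is not given in the sources used here, so p-values measure the spread between these samples only. Ptprc, which encodes CD45, was at 54.5, 59.4, 55.3 and 53.7 TPM.

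Cells make cholesterol from acetyl-CoA through mevalonate, farnesyl diphosphate, squalene and lanosterol. When sterol in the endoplasmic reticulum is low, SCAP carries SREBP2 to the Golgi, where it is cut and freed to switch on the genes of the synthesis enzymes, and INSIG proteins hold the complex back when sterol is plentiful. Oxysterols, the oxidized forms of cholesterol, activate the liver X receptors (LXR), which switch on cholesterol exporters. Macrophages that take up much lipid store surplus cholesterol as esters in droplets and hydrolyse the esters again before the sterol leaves the cell.

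The enzymes of cholesterol synthesis, the LXR branch and the genes of ester storage all held members that rose with HFD. Of the 33 genes, 10 rose and 1 fell by at least 1.5-fold with an adjusted p-value under 0.05 in limma, while 8.08% of all genes tested rose and 10.3% fell, or 18.4% in either direction. The largest increases were in Nceh1, Soat1, Nr1h3 and Abcg1, between 3.66-fold and 6.82-fold, followed by 6 synthesis enzymes between 1.68-fold and 2.63-fold. The single decrease was in Cyp27a1. Both HFD values were above both ND values for 21 genes, against 34.1% of all genes tested, and below them for 10 genes, against 32.8% of all genes tested. In the remaining 2 genes, Mvk and Scap, the diets overlapped. The median log2 fold change was 0.26 over the 33 genes and 0.06 over all genes tested. With 2 samples per diet an exact permutation test of 1 gene cannot go below p = 0.333, so every adjusted p-value below comes from limma, which shares its estimate of spread across genes. With either ND sample left out, no gene of the whole table was called, although 13 and 14 of the 33 genes had an unadjusted p-value under 0.05 without ND 1 and without ND 2.

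**Figure D1:**
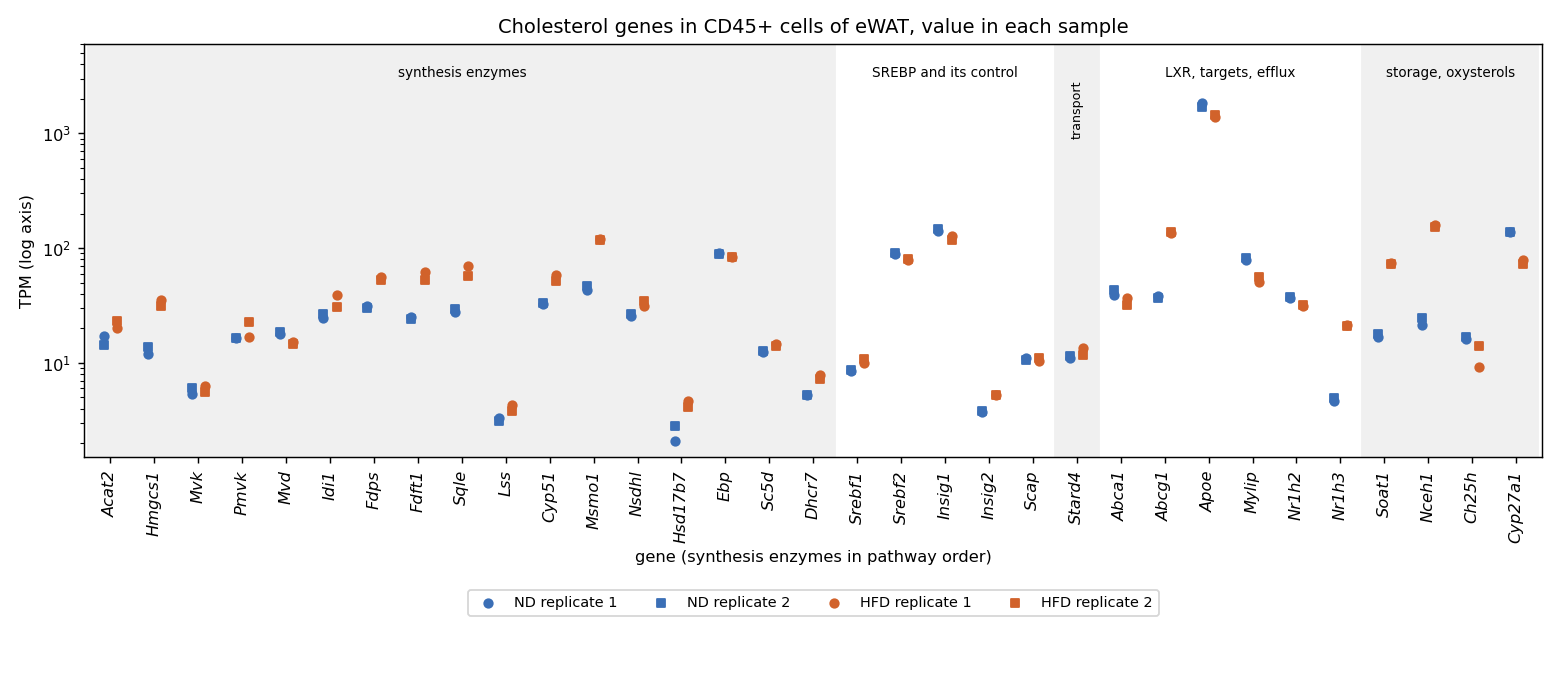
TPM of each of the 33 genes (log scale) in the 2 ND samples and the 2 HFD samples, 1 point per sample, grouped by role. The samples of a diet lie close together, with Apoe the highest in each, and the widest gaps between diets are in Nceh1, Nr1h3, Soat1 and Abcg1.

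Other measures of these libraries moved with the diet. Summed TPM of 7 markers of lipid-associated macrophages was 1031.5 and 1081.0 in ND and 8235.8 and 8639.1 in HFD, and all 7 rose. Markers of resident macrophages (5 of 5 fell) summed to 2664.1 and 2776.2 against 1092.3 and 960.0, whereas 8 general macrophage markers summed to 16455 to 17017 in ND and 14163 to 15000.0 in HFD, with 2 higher and 1 lower. Fibroblast markers (4 of 6 rose) summed to 522 and 561 against 2836.6 and 5686.2, T cell markers (4 of 4 tested fell) to 122 and 131 against 13.9 and 27.2, and B cell markers (4 of 4 fell) to 113 and 112 against 22.3 and 26.5. Endothelial markers summed to 169 to 204 in all samples (0 of 5 called), adipocyte markers to 16.2 to 30.9 (1 higher and 1 lower of 6) and Leydig cell markers, a check for steroid-producing testis cells, to 159 to 283 (1 of 5 higher). Spermatid markers summed to 1733.9, 1748.0, 6460.0 and 1995.0, so HFD 1 stood apart from the other 3 samples (0 of 5 called). No marker was at 0 in any sample. The part of these shifts in the results below was not tested, and in RNA from a mixture of cells a change in the number of cells of a type cannot be told apart from a change in RNA per cell.

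Of the 17 enzymes of the synthesis pathway, 6 rose, none fell and 11 were not called. HFD values were above ND values in 14 of the 17 and below them in Mvd and Ebp, and the median log2 fold change was 0.44, with single values from -0.28 to 1.38. Over all genes tested, 8.08% rose and 10.3% fell, and both HFD values were above both ND values in 34.1% and below them in 32.8%. The called enzymes were spread along the pathway, from Hmgcs1 near its start to Msmo1 in the removal of methyl groups from lanosterol. With the replicate number added to the fit as a block, Msmo1 and Fdft1 kept their call, and Hmgcs1, Sqle, Fdps and Cyp51 lost it.

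Msmo1 (chr8:64718139-64733792), the sterol C4-methyl oxidase, had the largest change of the enzymes. Its TPM was 43.0 and 47.1 in ND and 120.0 and 116.6 in HFD, or 45.0 ± 2.90 against 118 ± 2.40 (SD, n = 2). The ratio of means was 2.63 and the log2 fold change 1.38 (SE 0.07, adjusted p = 0.00539), and both HFD samples lay far above both ND samples. Hmgcs1 (chr13:119690379-119708260), which makes HMG-CoA, the precursor of mevalonate, was at 11.9, 13.8, 35.3 and 31.1 TPM. This was a log2 fold change of 1.30 (SE 0.12, adjusted p = 0.0114). Without HFD 1 it was 1.22, with an adjusted p of 0.0526, so Hmgcs1 was no longer called without that sample.

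The genes of the squalene steps rose 2.34-fold and 2.21-fold. Fdft1 (chr14:63145150-63179578), squalene synthase, was at 25.0, 24.0, 61.7 and 52.8 TPM, with a log2 fold change of 1.19 (SE 0.10, adjusted p = 0.0104). Sqle (chr15:59315077-59331192), squalene epoxidase, was at 28.0, 29.6, 70.1 and 57.3 TPM, with a log2 fold change of 1.11 (SE 0.12, adjusted p = 0.0158). In both genes the lower HFD sample, HFD 2, was still far above both ND samples. Fdft1 shares 774 exon bases, 18.3% of its exon length in GENCODE vM21, with Ctsb on the opposite strand, a lysosomal protease that was at 1292.1, 1257.9, 2434.5 and 2558.8 TPM. The libraries were stranded, but whether strand was used in counting is not given in the sources used here, so reads of Ctsb in the shared bases may be part of the Fdft1 values.

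Fdps and Cyp51 rose less. Fdps (chr3:89093588-89101959), which makes farnesyl diphosphate, was at 31.1, 30.0, 55.7 and 52.5 TPM, with a log2 fold change of 0.80 (SE 0.06, adjusted p = 0.00886). Cyp51 (chr5:4081145-4104746), lanosterol 14α-demethylase, was at 32.5, 33.3, 58.6 and 51.8 TPM, with a log2 fold change of 0.73 (SE 0.08, adjusted p = 0.0165). In neither gene did the diets overlap. Fdps shares 26.7% of its exon bases with the gene model Gm43738 on the same strand, for which no value is listed, and Cyp51 shares 3.76% of them with Akap9, at 1.6 to 2.0 TPM.

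The 11 enzymes that were not called were spread over the same pathway. Hsd17b7, a sterol ketoreductase, was at only 2.1, 2.8, 4.7 and 4.1 TPM, with a ratio of means of 1.80 but an adjusted p of 0.0628. Dhcr7, which catalyses a last step to cholesterol, was at 5.3, 5.3, 7.9 and 7.3 TPM, with an adjusted p of 0.0414 and a log2 fold change of 0.45, under the fold limit. Its HFD values were above its ND values, like those of Acat2, Pmvk, Idi1, Lss, Nsdhl and Sc5d. Acat2, a cytosolic acetyl-CoA thiolase, was at 17.1, 14.4, 20.1 and 23.4 TPM (adjusted p = 0.0969), and its near-identical neighbour Acat3 at 68.5, 63.5, 94.3 and 79.6 TPM, so reads may be split between these 2 genes. Idi1, isopentenyl diphosphate isomerase, was at 24.4, 26.6, 38.7 and 30.5 TPM (adjusted p = 0.127), with HFD 2 closer to the ND samples than HFD 1. Log2 fold changes of Pmvk, Lss, Nsdhl and Sc5d lay between 0.18 and 0.32. That of Pmvk, at 16.5, 16.6, 16.8 and 22.5 TPM, came mostly from HFD 2. It was 0.22 with all samples, 0.02 without HFD 2 and 0.42 without HFD 1.

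Mvk, Mvd and Ebp were the enzymes whose HFD values were not both above the ND values. Mvk, mevalonate kinase, was at 5.4, 6.1, 6.3 and 5.6 TPM, and its diets overlapped. Its log2 fold change was 0.04, with a 95% confidence interval from -0.29 to 0.38, and it was -0.033 without ND 1, -0.03 without HFD 1 and -0.01 without the 50 most abundant genes. Mvd, which decarboxylates mevalonate diphosphate, was at 17.9, 18.6, 15.1 and 14.7 TPM, with both HFD samples the lower (log2 fold change -0.28, adjusted p = 0.0586). Ebp, a sterol isomerase and the most abundant of the 17 enzymes in ND, was at 91.0, 88.8, 84.4 and 83.2 TPM, a log2 fold change of -0.10.

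HFD 1 was above HFD 2 in 14 of the 17 enzymes, or 82.4%, and in 62.8% of all genes tested. HFD 1 is also the sample with the high spermatid markers, whose part in the synthesis values was not tested. With HFD 1 left out, the log2 fold changes of the 6 called enzymes were 1.35 for Msmo1, 1.22 for Hmgcs1, 1.08 for Fdft1, 0.97 for Sqle, 0.76 for Fdps and 0.64 for Cyp51. All of these stayed above the fold limit, and only Hmgcs1 lost its call.

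**Figure D2:**
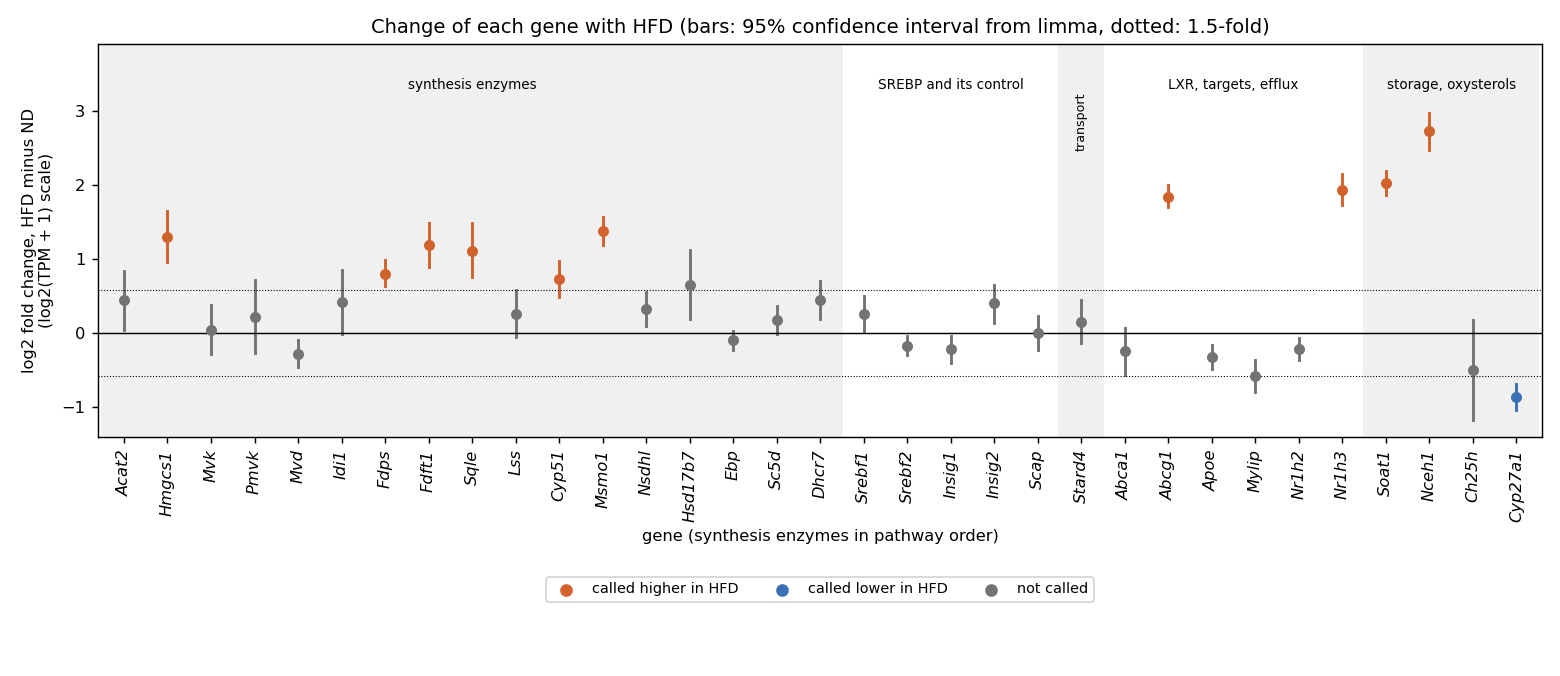
Log2 fold change of each gene, HFD minus ND on the log2(TPM + 1) scale, with the 95% confidence interval from limma, and dotted lines at the 1.5-fold limit. The 10 genes called higher (orange) lie between 0.73 and 2.72, Cyp27a1 is called lower (blue) at -0.87, and the other 22 genes (grey) are not called.

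Among the 5 genes for SREBP and its control none was called, and the median log2 fold change was 0.00. Srebf2, which encodes SREBP2, was at 88.1, 90.9, 78.9 and 80.0 TPM, slightly lower in both HFD samples (log2 fold change -0.17, adjusted p = 0.0721). Insig1, which holds SCAP in the endoplasmic reticulum and is itself a target of SREBP, was at 140.8, 145.7, 127.8 and 117.7 TPM (log2 fold change -0.22, adjusted p = 0.082). Both HFD values of Insig1 were below both ND values, opposite in sign to the 6 synthesis enzymes that rose. Scap, the sterol sensor and escort, was at 11.0, 10.5, 10.4 and 11.1 TPM, with the diets overlapping.

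The partner genes Srebf1 and Insig2 were the higher in HFD, neither past the test. Srebf1, whose products act mainly on fatty acid synthesis, was at 8.5, 8.6, 10 and 10.9 TPM (adjusted p = 0.104). Insig2 was at 3.7, 3.8, 5.3 and 5.2 TPM (adjusted p = 0.0503). The ratio of Insig1 to Insig2 was therefore 38.1 and 38.3 in ND and 24.1 and 22.6 in HFD. The ratio of Srebf2 to Srebf1 was 10.4 and 10.6 against 7.89 and 7.34, and neither pair of ratios overlapped. Stard4, a carrier of cholesterol between membranes, was at 11.0, 11.4, 13.5 and 11.7 TPM (adjusted p = 0.336).

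In the LXR branch, 2 of 6 genes rose and 4 were not called, all 4 of them lower in both HFD samples. Over all genes tested, 8.08% rose and 32.8% had both HFD values below both ND values. The median log2 fold change of the 6 genes was -0.24, with single values from -0.58 to 1.93, so the median and the 2 largest values differ in sign. Nr1h3 (chr2:91184061-91202834), which encodes LXRα, was at 4.7 and 4.9 TPM in ND and 21.2 and 20.9 in HFD, or 4.80 ± 0.141 against 21.0 ± 0.212 (SD, n = 2). The log2 fold change was 1.93 (SE 0.07, adjusted p = 0.00449). Nr1h2, which encodes LXRβ, was at 37.0, 37.4, 31.3 and 32.2 TPM, with a log2 fold change of -0.22 (adjusted p = 0.0574). Nr1h2 remained the more abundant receptor gene in all 4 samples, and the ratio of Nr1h3 to Nr1h2 was 0.127 and 0.131 in ND and 0.677 and 0.649 in HFD.

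The exporter genes Abcg1 and Abca1, both well-known LXR targets, gave different values. Abcg1 (chr17:31057675-31117988), which passes cholesterol to HDL, was at 38.1 and 36.6 TPM in ND and 134.3 and 139.0 in HFD, or 37.4 ± 1.06 against 137 ± 3.32 (SD, n = 2). It had a log2 fold change of 1.84 (SE 0.05, adjusted p = 0.00402). Abca1, which passes cholesterol to lipid-free apolipoprotein, was at 38.8, 43.0, 36.5 and 31.8 TPM, with a log2 fold change of -0.25, a 95% confidence interval from -0.57 to 0.06 and an adjusted p of 0.168. The ND samples held similar levels of both transcripts, with ratios of Abcg1 to Abca1 of 0.982 and 0.851, and in the HFD samples the ratios were 3.68 and 4.37. The interval for Abca1 ends below that for Abcg1, which runs from 1.70 to 1.99, and the difference between the genes was not tested.

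The remaining LXR targets of the list were lower in both HFD samples without passing both limits. Mylip, whose product IDOL marks lipoprotein receptors for degradation, was at 78.1, 81.2, 50.2 and 55.6 TPM. Its log2 fold change was -0.58 (SE 0.07, adjusted p = 0.0193), just short of the 1.5-fold limit, and it was called with a pseudocount of 0.1, after quantile normalization, without the 50 most abundant genes or without HFD 2. With median-ratio scaling and without ND 1 it also passed the fold limit, at -0.61 in both, but the adjusted p was 0.0731 and 0.188. Apoe, a lipid carrier secreted by macrophages, was at 1826.4, 1698.5, 1379.0 and 1434.5 TPM, by far the highest level among the 33 genes, with a log2 fold change of -0.32 and an adjusted p of 0.0322, under the fold limit.

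Both genes of the ester cycle rose. Soat1 (chr1:156424525-156474331), which esterifies cholesterol for storage in droplets and is also known as ACAT1, was at 16.9 and 17.7 TPM in ND and 74.2 and 72.3 in HFD, or 17.3 ± 0.566 against 73.2 ± 1.34 (SD, n = 2). The log2 fold change was 2.02 (SE 0.06, adjusted p = 0.00402). Nceh1 (chr3:27182965-27284608), which hydrolyses cholesteryl esters outside the lysosome, was at 21.5 and 24.5 TPM in ND and 160.3 and 153.5 in HFD, or 23.0 ± 2.12 against 157 ± 4.81 (SD, n = 2). Its log2 fold change was 2.72 (SE 0.08, adjusted p = 0.00423), the largest of the 33 genes, and it ranked 86 among the 1361 genes called higher, ahead of Soat1 at 182, Nr1h3 at 204 and Abcg1 at 226. The Nceh1 level was above the Soat1 level in each sample, at 1.27 and 1.38 times its level in ND and 2.16 and 2.12 times in HFD.

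Of the 2 oxysterol-forming enzymes, Cyp27a1 fell and Ch25h was not called. Cyp27a1 (chr1:74713574-74737892), the mitochondrial sterol 27-hydroxylase, was at 138.1 and 138.7 TPM in ND and 78.6 and 72.4 in HFD, or 138 ± 0.424 against 75.5 ± 4.38 (SD, n = 2). Its log2 fold change was -0.87 (SE 0.06, adjusted p = 0.008), and the diets were well apart. Ch25h, cholesterol 25-hydroxylase, was at 16.1, 16.9, 9.2 and 14.1 TPM, where HFD 1 was clearly below the other 3 samples. Its log2 fold change was -0.50, with a 95% confidence interval from -1.18 to 0.18 and an adjusted p of 0.205, and it was -0.78 without HFD 2, with an adjusted p of 0.0334, and -0.21 without HFD 1.

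Mean log2(TPM + 1) over the members of each role gave the contrast between synthesis and efflux. The 17 synthesis enzymes averaged 4.12 and 4.16 in ND and 4.71 and 4.64 in HFD. The 6 genes of LXR and efflux averaged 5.92 and 5.93 against 6.32 and 6.33, and this mean was higher in HFD although the median log2 fold change of the 6 was below 0. Synthesis minus efflux was -1.80 and -1.77 in ND and -1.60 and -1.69 in HFD, so the synthesis mean stayed below the efflux mean in every sample and the difference was smaller in both HFD samples. The 4 storage and oxysterol genes averaged 4.97 and 5.05 against 5.81 and 5.90, and the 5 SREBP control genes 4.54 and 4.55 against 4.59 and 4.61.

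**Figure D3:**
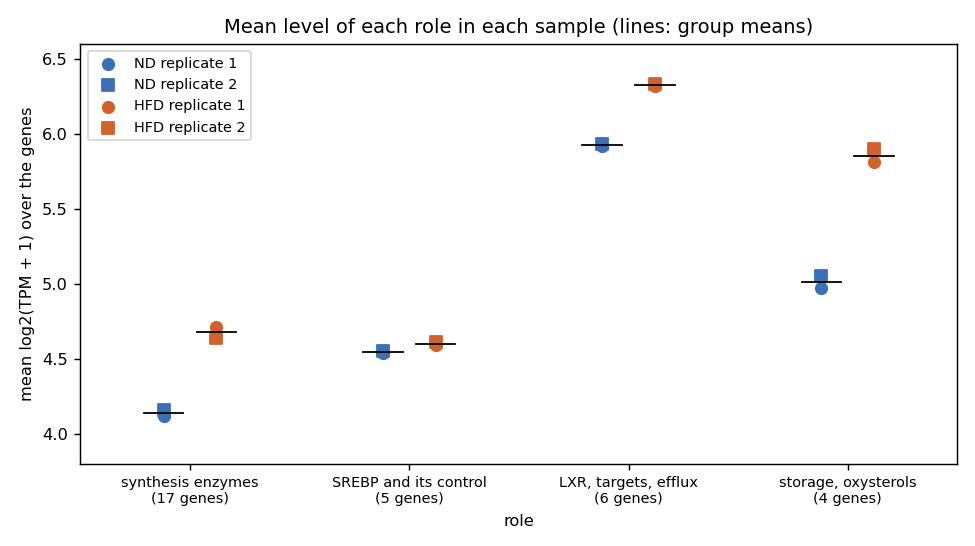
Mean log2(TPM + 1) over the genes of each role in each of the 4 samples, 1 point per sample, with lines at the mean of a diet. Every role shown is higher in both HFD samples than in both ND samples. The gap is smallest for the SREBP control genes, at 4.54 and 4.55 in ND and 4.59 and 4.61 in HFD.

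The promoters of the members were searched for letters tied to their known regulators, which for the synthesis enzymes are SREBP2 and its partner NF-Y and for the exporters LXR. RefSeq promoter windows for GRCm38.p6, with 250 bases before and 50 after a gene's start, were found for 28 of the 33 genes, among them 14 synthesis enzymes. Abcg1, Sqle, Fdps, Fdft1 and Stard4 were not matched. Both strands were searched for the sterol regulatory element-like letters TCACNCCAC, the NF-Y box CCAAT and the LXR element DR4, read as 2 AGGTCA half-sites with at most 1 mismatch each and 4 bases between them. No TCACNCCAC match overlapped a CCAAT match.

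The 250 bases before the start are printed below for 5 genes, chosen after their values were seen. Hmgcs1 (chr13:119690101-119690350, plus strand) and Msmo1 (chr8:64733579-64733828, minus strand) are the called enzymes with the most matches. Mvk (chr5:114444019-114444268, plus strand) was not called but holds 5 CCAAT boxes, the most of the 28 windows. Nceh1 (chr3:27182754-27183003, plus strand) had the largest increase, and Cyp27a1 (chr1:74713285-74713534, plus strand) the only decrease. The sequences read 5′ to 3′ on the strand of the gene, and capitals mark the matches, where ATTGG is CCAAT on the other strand.
Hmgcs1: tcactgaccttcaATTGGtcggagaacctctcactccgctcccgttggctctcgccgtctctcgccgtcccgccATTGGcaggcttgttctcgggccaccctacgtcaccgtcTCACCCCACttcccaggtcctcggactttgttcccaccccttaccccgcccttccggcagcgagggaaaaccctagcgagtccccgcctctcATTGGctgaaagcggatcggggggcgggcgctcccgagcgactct
Msmo1: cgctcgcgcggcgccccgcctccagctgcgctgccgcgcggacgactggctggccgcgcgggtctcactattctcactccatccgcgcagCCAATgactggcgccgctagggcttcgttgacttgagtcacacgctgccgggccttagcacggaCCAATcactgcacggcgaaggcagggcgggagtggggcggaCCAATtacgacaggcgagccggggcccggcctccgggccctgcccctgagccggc
Mvk: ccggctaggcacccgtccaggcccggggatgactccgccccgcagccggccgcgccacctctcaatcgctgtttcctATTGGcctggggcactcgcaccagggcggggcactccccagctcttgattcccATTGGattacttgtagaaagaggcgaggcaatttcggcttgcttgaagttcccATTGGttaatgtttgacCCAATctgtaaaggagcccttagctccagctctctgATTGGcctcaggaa
Nceh1: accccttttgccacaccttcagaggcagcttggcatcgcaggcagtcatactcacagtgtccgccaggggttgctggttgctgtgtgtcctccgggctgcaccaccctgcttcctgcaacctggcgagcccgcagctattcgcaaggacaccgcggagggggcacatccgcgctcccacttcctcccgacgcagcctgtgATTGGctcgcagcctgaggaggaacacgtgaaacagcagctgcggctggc
Cyp27a1: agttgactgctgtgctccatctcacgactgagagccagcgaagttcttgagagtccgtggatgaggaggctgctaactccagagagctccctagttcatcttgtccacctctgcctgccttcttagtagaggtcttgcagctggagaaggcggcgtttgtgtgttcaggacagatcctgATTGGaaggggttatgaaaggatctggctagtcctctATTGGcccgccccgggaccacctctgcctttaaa

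TCACNCCAC occurred in 1 of the 28 windows, that of Hmgcs1, with its first base at -137 from the start, and in 1.22% of all 27025 windows of the table. CCAAT occurred in 20 of the 28 windows, or 71.4%, against 38.0% of all windows. It occurred in 12 of 14 synthesis enzymes, 4 of 5 SREBP control genes, 3 of 4 storage and oxysterol genes, and 1 of 5 genes of LXR and efflux, that of Mylip. Windows with CCAAT included genes that rose (Msmo1, Hmgcs1, Cyp51, Soat1, Nceh1), the gene that fell (Cyp27a1) and genes that were not called (Mvk, Mvd, Insig1), so the box was found in all 3 kinds. The DR4 letters occurred in none of the 28 windows and in 1.74% of all windows. This depends on the limit of 1 mismatch per half-site, and does not show that the windows lack LXR elements. The Abca1 window holds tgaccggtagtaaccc, a DR4-like stretch on the other strand with a half-site past that limit. Abcg1, the other exporter of the list, had no window. A match is a description of these letters only, and sites outside the windows were not searched.

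Other genes of the same pathways, from a list of 48 of which 47 were listed and 39 passed the limit on low values, gave 8 genes that rose and 6 that fell, while 8.08% of all genes tested rose and 10.3% fell. The median log2 fold change was 0.03, against 0.06 over all genes tested. Uptake and lysosomal release held 4 of the 8 increases and no decrease among its 7 tested genes, with a median of 0.66. Lipa, the lysosomal acid lipase that frees cholesterol from lipoprotein esters, was at 175.8, 185.3, 753.3 and 761.7 TPM (log2 fold change 2.06, adjusted p = 0.00378). Lrp1, an endocytic receptor for lipoprotein remnants, was at 288.1, 318.2, 749.9 and 787.3 TPM (1.34, adjusted p = 0.00579). Npc1, which exports cholesterol from the lysosome, was at 43.1, 47.8, 85.1 and 89.2 TPM (0.93, adjusted p = 0.00978), and without HFD 1 its adjusted p was 0.0502. Scarb1, a receptor for HDL, was at 39.3, 39.6, 59.7 and 66.0 TPM (0.66, adjusted p = 0.015). All 4 were higher in both HFD samples, but Scarb1 was not called after median-ratio scaling (adjusted p = 0.0674) or quantile normalization (log2 fold change 0.52).

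The further synthesis genes of that list held no increase: of 5 tested, 2 fell and none was called higher. Lbr, which carries a sterol reductase activity beside its role in the nuclear envelope, was at 27.4, 30.4, 13.4 and 13.4 TPM (log2 fold change -1.05, adjusted p = 0.00896). Acat1, a mitochondrial thiolase, was at 83.8, 87.9, 52.8 and 54.2 TPM (-0.67, adjusted p = 0.00909). In both genes the HFD samples lay below the ND samples, opposite in sign to the 6 enzymes that rose.

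Among 8 further genes of LXR and efflux, Smpdl3a and Lpcat3 rose while Rxra and Abca7 fell. Smpdl3a, a phosphodiesterase known as an LXR target, was at 263.9, 277.6, 437.7 and 438.4 TPM (log2 fold change 0.69, adjusted p = 0.00705), and Lpcat3, a phospholipid-remodelling LXR target, at 38.2, 41.6, 64.5 and 58.3 TPM (0.61, adjusted p = 0.0233). Without HFD 1, the log2 fold change of Lpcat3 was 0.54, with an adjusted p of 0.0721. Rxra, which encodes the partner receptor of LXR, was at 24.0, 24.9, 15.7 and 14.6 TPM (-0.66, adjusted p = 0.015), and Abca7, a lipid transporter, at 7.7, 7.8, 4.7 and 4.8 TPM (-0.61, adjusted p = 0.0206). The calls of Smpdl3a, Lpcat3, Rxra and Abca7 were each lost under at least 1 other setting, with log2 fold changes under the limit. After quantile normalization that of Smpdl3a was 0.57 and that of Lpcat3 0.49. With a pseudocount of 5 it was -0.55 for Rxra, -0.39 for Abca7 and 0.56 for Lpcat3, and without the 50 most abundant genes it was 0.55 for Lpcat3.

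Of 4 further genes of SREBP processing, Mbtps2, the protease of the second SREBP cut, rose from 14.4 and 16.4 to 28.9 and 25.1 TPM (log2 fold change 0.77, adjusted p = 0.0265). Hsd3b7, an enzyme of bile acid synthesis, rose from 22.1 and 22.5 to 33.9 and 38.2 TPM (0.67, adjusted p = 0.019). Soat2, the second esterifying enzyme, fell from only 2.9 and 3.5 to 1.0 and 1.5 TPM (-0.91, adjusted p = 0.0417), opposite to Soat1. In 7 SREBP targets of fatty acid synthesis there was 1 decrease and no increase, while 8.08% of all genes tested rose and 10.3% fell. Scd1, a fatty acid desaturase, was at 60.9, 62.4, 25.2 and 33.5 TPM (-1.06, adjusted p = 0.027). Scd1 was not called without the limit on low values (adjusted p = 0.059) or after median-ratio scaling (adjusted p = 0.0539). The calls of Mbtps2 and Soat2 were lost without either HFD sample. Without HFD 1, the adjusted p was 0.0815 for Mbtps2 and 0.0865 for Soat2. Without HFD 2 it was 0.0549 and 0.0523, and the log2 fold change of Hsd3b7 was 0.58, under the fold limit. Without the limit on low values the adjusted p was 0.0581 for Mbtps2 and 0.0814 for Soat2. After median-ratio scaling it was 0.0709 for Hsd3b7 and 0.0574 for Soat2, and after quantile normalization 0.0518 and 0.0811. With a pseudocount of 5 the log2 fold change of Soat2 was -0.39.

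**Figure D4:**
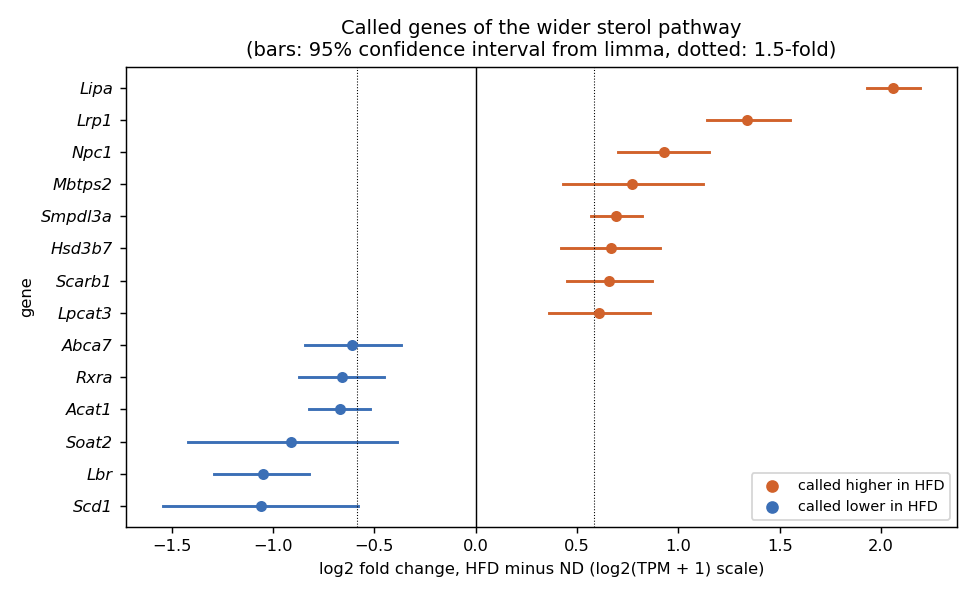
Log2 fold change (HFD minus ND, log2(TPM + 1) scale) with 95% confidence intervals from limma for the 14 called genes of the further list, and dotted lines at the 1.5-fold limit. The 8 genes called higher (orange) lie between 0.61 and 2.06 and the 6 called lower (blue) between -1.06 and -0.61.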

How the data were processed

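Per the labels and the study's methods, the authors prepared stranded mRNA libraries from CD45+ eWAT cells, trimmed reads with Trim Galore 0.4.2 and cutadapt 1.9.1, aligned them to mm10 with STAR 2.6.1e, removed duplicates with Sambamba and counted reads per gene with featureCounts 1.6.2 (versions from the submitters' processing notes). The annotation and the use of strand in counting are not given in the sources used here. The deposited values are TPM per gene, to 1 decimal.

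The members and all lists of genes were chosen with earlier results of these data known. Values were compared as log2(TPM + 1) by limma 3.58.1 in R 4.3.3 (eBayes with a variance trend, Benjamini-Hochberg adjustment over all 16849 genes), so fold changes of low genes are understated. All 33 members are named, and of the further genes those called. A gene of the further list is not reported here. The fit was tested on simulated data. From the smallest steps of 193 to 233 microRNA genes, 1 read per kb is 0.0607 to 0.0711 TPM, which gives about 37500000 to 46800000 counted reads per sample. The gap between replicates was 1.44 times counting error in ND and 3.16 times in HFD. Gene positions are those of GENCODE vM21 (GRCm38). Alternatives were other pseudocounts, filters, scalings and fold limits, no variance trend, a replicate block and each sample left out. Python 3.11.15 and matplotlib 3.10.9 were used for the figures.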

Additional observations from a re-analysis of the deposited data

How the results depend on the processing

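With 1 sample left out, between 0 and 10 of the 33 genes were called higher, 0 to 3 lower, 0 to 7 further pathway genes higher, 0 to 5 lower and 0 to 4232 genes of the whole table. The counts of 0 came without either ND sample, where limma still gave 3862 genes (without ND 1) and 4024 genes (without ND 2) an unadjusted p under 0.05, and the lone sample was assumed to vary like the other diet. Over all genes tested, the replicate differences in ND and in HFD had a correlation of -0.015. With 2 samples per diet this cannot show whether same-numbered samples shared a day or litter. A replicate block left 6 of the 33 genes higher (Hmgcs1, Sqle, Fdps and Cyp51 had adjusted p-values of 0.0515 to 0.0664), 4 further genes higher, 0 lower and 812 genes in all, 807 of which were among the 3097. Cyp27a1 was called lower, and with a pseudocount of 0.1, quantile normalization or no use of the 50 most abundant genes there were 2 genes lower, with Mylip. With no fold limit 3 were lower. A limit of 2-fold left 8 of the 33 genes higher and 0 lower, and 2 further genes higher, 2 lower and 1602 genes in all. A pseudocount of 5 left 3 further genes lower and 2015 genes in all, and quantile normalization 4 further genes higher. Mvk turned to -0.01 without the 50 most abundant genes and lay between -0.033 and 0.12 with a sample left out, and Scap lay between -0.043 and 0.043. At the 1.5-fold limit and with all 4 samples, the 11 called genes kept their call in 95 of 99 fits, and the other 4 were those of the block. The 14 called further genes lost it in 29 of 125 such fits. Soat2 rests on about 35 to 128 reads per sample.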
